A study of Mus musculus with 2 samples.

Results

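The genes described here are 10 members of the Notch pathway in stromal cells of mouse pancreatic tumours: the receptors Notch1, Notch2, Notch3 and Notch4, the ligands Dll1, Dll4, Jag1 and Jag2, and the target genes Hes1 and Heyl. They were chosen by symbol, as the rows of both count matrices that carry these names, and all 10 were found among 31054 features. Levels are in CPM, the usual scale on which the unique molecular identifiers (UMIs) of a gene, summed over the cells of a class, are divided by all UMIs of that class and brought to a common total. They are not corrected for length, so levels are compared between classes and not between genes. The 95% intervals behind them are Poisson for levels, binomial for shares of cells and conditional for ratios. All are exact and cover counting error only.

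The study grafted pancreatic ductal adenocarcinoma into mice that carry p16-CreERT2 and R26-LSL-tdTomato to study stromal cells with high p16 expression. Tumours were taken after the circulation had been flushed with saline, dissociated with enzymes and cleared of red cells, and stained cells were sorted by tdTomato. Each sorted fraction, Tom positive and Tom negative, gave 1 single-cell library, so both groups share genotype, tumour model and preparation. The reporter is switched on by an inducible Cre driven from p16, so it marks cells in which Cre was active at induction, and their descendants. The time and dose of induction, the number of mice pooled, their age and the antibodies used to define stroma are not stated in the labels. With 1 library per group there is no replicate, no test and no p-value: a member is called higher or lower when its CPM ratio passes 1.5-fold and it reaches 10 CPM in either library.

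Notch receptors are single-pass membrane proteins that are cleaved after binding a Delta-like or Jagged ligand on a neighbouring cell, and the freed intracellular part joins RBPJ in the nucleus to switch on genes of the Hes and Hey families. In blood vessels, DLL4 and NOTCH1 restrain tip cells and take part in arterial identity, while NOTCH3 is the receptor of pericytes and vascular smooth muscle, which receive JAG1 from the endothelium. In myeloid cells, NOTCH2 takes part in the fate of monocytes and dendritic cells.

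The libraries held 7568 barcodes with 128275546 UMIs (Tom positive) and 13604 barcodes with 164646314 UMIs (Tom negative), and 3660 barcodes occurred in both. Shared barcodes whose UMIs lay mostly in the other library, or were few in both, were left out, which removed 234 and 1233 otherwise acceptable cells. This left 4068 and 5347 cells at median depths of 26251.5 and 26599 UMIs. By marker genes the Tom positive and Tom negative libraries held 509 and 119 endothelial-like cells, 147 and 12 lymphatic endothelial-like cells, 46 and 158 mural-like cells, 1550 and 2496 fibroblast-like cells, 1408 and 1888 mononuclear myeloid-like cells, and 285 and 540 neutrophil-like cells. All 10 endothelial markers reached 50 CPM in endothelial cells of both libraries. A cluster of 96 cells with both dendritic and lymphocyte markers stayed unnamed (1.06% and 0.991% of cells). Mural and lymphatic cells were too few for calls, since 50 cells were required in each library, and are given by their levels. The tdTomato transcript itself lay at 1070 and 45.2 CPM in myeloid cells and at 407 and 16.9 CPM in fibroblasts, but at only 209 and 101 CPM in endothelial cells, where the fractions were least separated by it.

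Promoter sequences are shown for Notch3, the receptor of mural cells, and Dll4, an endothelial ligand, and for 2 further pathway genes, Hey2 and Lfng, that hold the letters bound by RBPJ. Each is the 250 bases before the gene's start, read on the gene's strand from RefSeq (GRCm38.p6). Capitals mark CACGAG, the N box bound by Hes proteins, in Notch3 and TGGGAA, the RBPJ core, in Hey2 and Lfng, on either strand. Notch3 lies on the minus strand (chr17:32166891-32167140), Dll4 on the plus strand (chr2:119325534-119325783), Hey2 on the minus strand (chr10:30842784-30843033) and Lfng on the plus strand (chr5:140607091-140607340).

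Notch3: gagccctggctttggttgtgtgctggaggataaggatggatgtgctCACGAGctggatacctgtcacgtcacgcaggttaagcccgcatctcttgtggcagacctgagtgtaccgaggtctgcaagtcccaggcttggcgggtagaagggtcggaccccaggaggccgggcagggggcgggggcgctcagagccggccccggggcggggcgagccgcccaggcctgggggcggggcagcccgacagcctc
Dll4: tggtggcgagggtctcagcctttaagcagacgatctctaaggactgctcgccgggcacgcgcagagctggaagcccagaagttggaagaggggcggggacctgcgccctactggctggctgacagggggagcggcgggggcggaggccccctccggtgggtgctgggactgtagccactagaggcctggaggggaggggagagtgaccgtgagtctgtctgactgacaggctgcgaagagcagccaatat
Hey2: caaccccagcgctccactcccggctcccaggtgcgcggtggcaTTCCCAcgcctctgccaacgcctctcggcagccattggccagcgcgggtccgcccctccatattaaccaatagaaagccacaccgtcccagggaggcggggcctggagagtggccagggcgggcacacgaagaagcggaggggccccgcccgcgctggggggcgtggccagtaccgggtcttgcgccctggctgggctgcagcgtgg
Lfng: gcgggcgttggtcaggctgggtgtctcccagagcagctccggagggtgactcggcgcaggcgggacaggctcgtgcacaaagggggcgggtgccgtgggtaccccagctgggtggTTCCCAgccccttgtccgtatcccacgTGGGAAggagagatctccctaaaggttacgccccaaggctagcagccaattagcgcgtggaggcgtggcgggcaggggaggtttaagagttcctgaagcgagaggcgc

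Of the members, 8 had an entry in the promoter table. TGGGAA was found in 0 of these 8, and in 8 of the 36 other pathway genes with an entry, Hes5, Hes7, Hey2, Poglut1, Lfng, Rbpj, Maml3 and Spen; 21.5% of 27025 promoters hold it. In Hey2 it begins at position -207 on the opposite strand, and in Lfng at -135 on the opposite strand and at -108 on the gene's own strand, where it overlaps a CACGTG that begins at -112. CACGAG was found in 1 of the 8 members, Notch3, at -204, and in 5.49% of all promoters. It was also found in 5 of the 36 other pathway genes, Dner, Hes7, Dtx1, Lfng and Neurl3. In the Lfng promoter above it begins at -181 on the opposite strand and is not in capitals. The E box CACGTG was found in 0 of the 8 members and in 6.05% of all promoters. A match of letters is a description and does not show binding.

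Notch1 (chr2:26457903-26516663 of mm10, minus strand) was at its highest in both kinds of endothelium. Its level was 155 CPM in endothelial cells of the Tom positive and 147 CPM in those of the Tom negative library, and 149 and 154 CPM in lymphatic endothelial cells. In the Tom positive library these neighbours did not differ beyond counting error (ratio 1.04, 0.958 to 1.14), and the 12 Tom negative lymphatic cells were too few to rank. Mural cells followed at 44.9 and 46.1 CPM, and the Tom positive lymphatic level was 3.31-fold (2.50 to 4.47) the mural one. Myeloid cells held 32.7 and 27.5 CPM and fibroblasts 10.1 and 12.8 CPM. Thinned to 2000 UMIs per cell, 25.5% (21.6 to 29.6) of Tom positive and 31.3% (23.0 to 40.6) of Tom negative endothelial cells held a Notch1 UMI, against 2.23% and 1.93% of fibroblasts. Unthinned, the endothelial shares were 88.4% and 87.4%. The median depths were 30849 and 20521 UMIs in endothelial cells and 39978.5 and 37441.5 UMIs in fibroblasts.

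Notch2 (chr3:98013527-98150361, plus strand) was distributed the other way. It was highest in neutrophils, at 206 CPM (Tom positive) and 273 CPM (Tom negative), then in myeloid cells at 157 and 148 CPM. The neutrophil levels rested on 210 and 427 UMIs. Thinned, 28.8% and 33.0% of neutrophils held a Notch2 UMI, and 29.2% and 26.1% of myeloid cells did. Endothelial cells held the lowest level of the 6 classes, 11.5 and 10.8 CPM. Lymphatic endothelial cells did not share that low level: they held 98.4 and 93.9 CPM, so that the 2 kinds of endothelium carried Notch1 at like levels but differed in Notch2. Fibroblasts stood at 72.6 and 69.9 CPM and mural cells at 58.5 and 44.9 CPM. The fibroblast marker list summed to 16860 and 9514 CPM in mural cells, 23.2% and 15.6% of its sum in fibroblasts. It summed to 1777 and 15570 CPM in lymphatic endothelial cells, 2.44% and 25.6%. Its part in the mural and lymphatic levels given here was not tested.

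Notch3 (chr17:32120820-32166852, minus strand) was the mural receptor. Its level was 753 CPM (704 to 804) in mural cells of the Tom positive library and 647 CPM (623 to 672) in those of the Tom negative one, and 97.8% and 98.1% of unthinned cells held a UMI. The next class was the endothelium, at 16.8 and 24.7 CPM, so that the mural level was 44.8-fold and 26.2-fold the endothelial one. Much of that endothelial signal came from 1 sub-cluster of 22 cells led by the mural genes Rgs5 and Des, which held 203 CPM of Notch3. Without it and a sub-cluster of 14 cells led by macrophage genes, endothelial Notch3 was 6.34 and 7.89 CPM. Thinned, 65.9% and 66.7% of mural cells held a Notch3 UMI, at unthinned median depths of 24128.5 and 23395 UMIs, and 0.517% and 0.542% of myeloid cells did, at 18346.5 and 20433 UMIs.

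Notch4 (chr17:34564268-34588503, plus strand) was the receptor most restricted to blood endothelium. It lay in endothelial cells at 88.2 CPM (Tom positive) and 111 CPM (Tom negative), 9.70-fold and 16.2-fold the next class. Lymphatic endothelial cells held only 8.84 and 2.84 CPM, and fibroblasts 3.67 and 3.21 CPM. Myeloid cells held 9.10 and 5.31 CPM, and these counts were not spread evenly over the class, as described for the myeloid clusters.

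The Delta-like ligands were endothelial. Dll4 (chr2:119325784-119335962, plus strand), the ligand that tip cells present to their neighbours, lay at 73.1 and 88.0 CPM in endothelial cells and at 34.9 and 19.9 CPM in lymphatic endothelial cells. It was at 0.242 and 0.103 CPM in fibroblasts and at 0.499 and 0.246 CPM in myeloid cells. Thinned, 10.8% (8.15 to 13.9) and 9.57% (4.87 to 16.5) of endothelial cells held a Dll4 UMI, and 0 of 1528 and 0 of 2434 fibroblasts did, which bounds only the share found at that depth (0.241% and 0.151%). Unthinned, 0.968% and 0.361% of fibroblasts held a Dll4 UMI, against 58.2% and 52.1% of endothelial cells. Dll1 (chr17:15367354-15376872, minus strand) followed the same classes at 16.6 and 21.3 CPM in endothelium and 8.84 and 17.1 CPM in lymphatic endothelium. In mural cells, fibroblasts, myeloid cells and neutrophils Dll1 stayed at or below 1.07 CPM.

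The Jagged ligands differed from each other. Jag1 (chr2:137081456-137116644, minus strand) was highest of the 6 classes in mural cells, at 137 and 125 CPM, 3.15-fold and 3.46-fold the next class. In the Tom positive library endothelial (43.3 CPM) and myeloid cells (42.2 CPM) did not differ in Jag1 beyond counting error, and in the Tom negative library fibroblasts (36.2 CPM) and endothelial cells (35.9 CPM) did not. Jag2 (chr12:112907819-112929776, minus strand) was an endothelial ligand at 43.0 and 47.4 CPM, 6.37-fold and 12.6-fold the next of the 6 classes. Fibroblasts held Jag2 at 0.695 and 0.729 CPM and mural cells at 1.70 and 0.946 CPM.

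The 2 targets, both transcriptional repressors of the bHLH type, marked different cells. Hes1 (chr16:30064384-30067796, plus strand) was broad. Lymphatic endothelial cells led in the Tom positive library at 272 CPM. The 12 Tom negative lymphatic cells held 250 CPM, on 88 UMIs of which 1 cell held 35, and were too few to rank. Endothelial cells held 134 and 101 CPM, mural cells 108 and 74.7 CPM and fibroblasts 56.5 and 47.8 CPM. Myeloid cells (14.2 and 6.79 CPM) and neutrophils (11.8 and 12.8 CPM) were at the low end. Heyl (chr4:123233556-123249875, plus strand) was a mural gene, at 61.9 and 61.0 CPM, 6.67-fold and 4.43-fold the fibroblast level of 9.27 and 13.8 CPM. In endothelial cells Heyl was low, with 10 UMIs (0.552 CPM) in the Tom positive and 1 UMI (0.339 CPM) in the Tom negative library.

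Other genes of the pathway added to this map. Dlk1, an atypical ligand, was mural, at 176 and 237 CPM, with 16.8 and 17.1 CPM in fibroblasts. Mfng, a glycosyltransferase like Lfng, was endothelial at 75.1 and 78.6 CPM, against 6.28 and 0 CPM in lymphatic endothelial cells. Dtx1, a regulator of Notch signalling, showed the opposite, with 85.6 and 54.0 CPM in lymphatic and 0.110 and 0 CPM in blood endothelial cells. The target Hes5 was at 0.123 CPM or less in all 6 classes. Adam10, a protease that cleaves ligand-bound receptors, lay at 266 and 263 CPM in endothelial cells and at 55.6 and 57.5 CPM in fibroblasts.

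**Figure D1:**
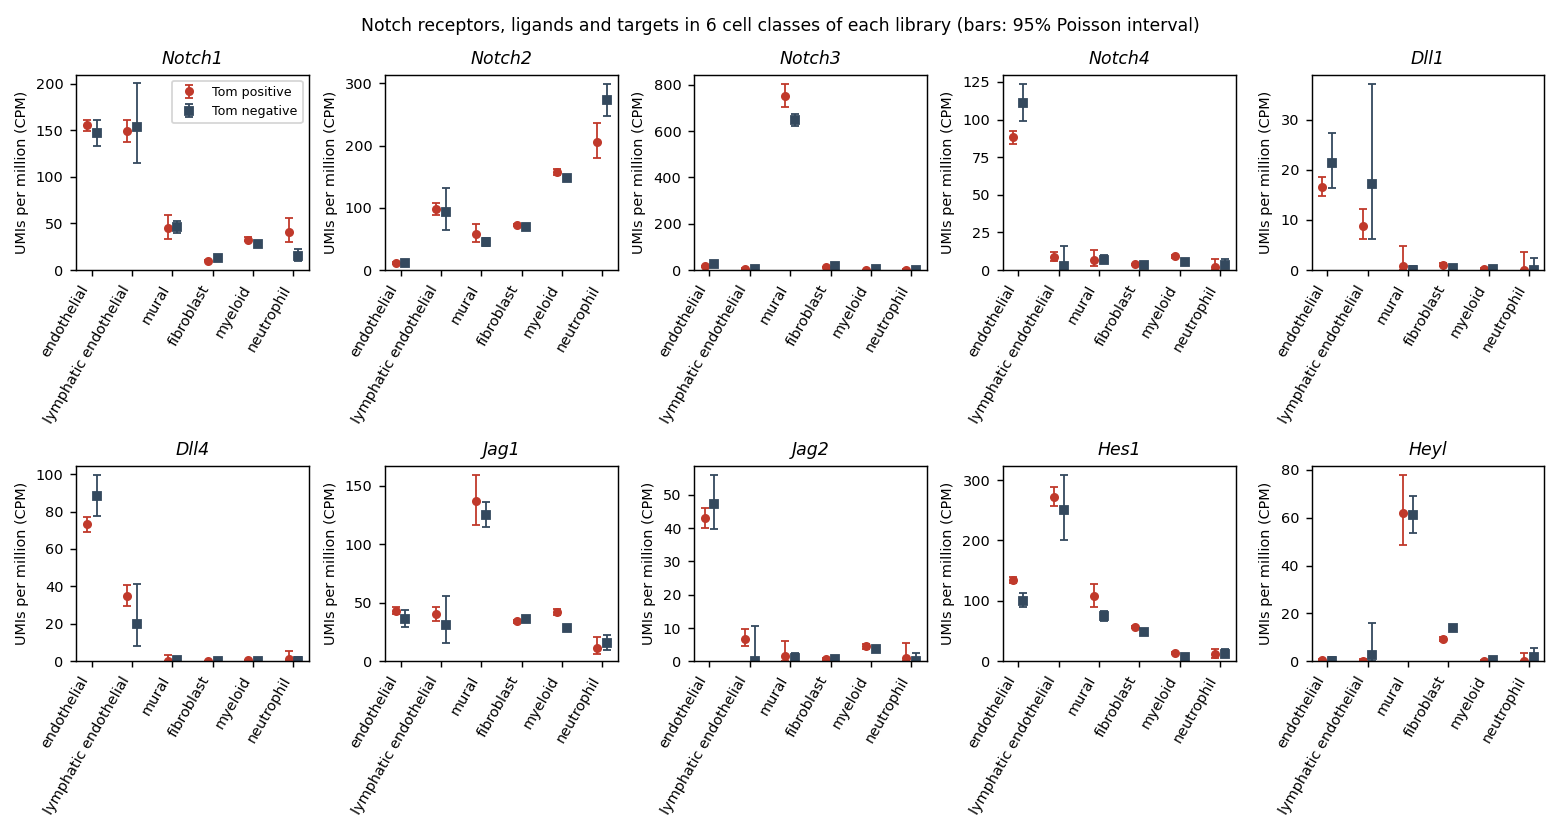
Level of each of the 10 members (vertical axes, CPM) in 6 cell classes (horizontal axes) of the Tom positive library (circles) and the Tom negative library (squares), with 95% Poisson intervals as bars. Notch4, Dll4, Dll1 and Jag2 stand highest in endothelial cells, and Notch3, Jag1 and Heyl in mural cells. Notch2 stands highest in neutrophils, and Hes1 in lymphatic endothelial cells, of which the Tom negative library held 12.

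The endothelial members were not spread evenly over the endothelium. Endothelial cells of both libraries were clustered again without the Notch genes, giving 12 sub-clusters, of which 1 (55 cells, with the connexin genes Gja5 and Gja4 among its leading genes) was arterial-like, 2 (86 and 32 cells) were tip-like and 1 (101 cells, with Ackr1 and Sele) was venous-like. The others stayed unnamed. Here levels of both libraries are summed, since several sub-clusters held few Tom negative cells.

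The arterial-like cells carried both ends of the pathway. They held the highest Notch1 of the 12, 235 CPM (215 to 258), with Notch4 at 178 CPM and Dll4 at 190.0 CPM. Both Jagged ligands peaked there, Jag1 at 146 CPM (129 to 163) and Jag2 at 118 CPM (103 to 134), against 30.5 and 13.5 CPM in venous-like cells. The target Hey1, a relative of Heyl, reached 124 CPM there and 3.81 CPM in the venous-like cells.

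Tip-like cells shared Dll4 and Notch4 with the arterial-like cells but not Jag1. The smaller tip-like sub-cluster, with Esm1 and Ptn among its leading genes, had Dll4 at 194 CPM (167 to 223) and Notch4 at 170 CPM (146 to 198), levels within the intervals of the arterial-like cells. Its Jag1 was 56.4 CPM (42.6 to 73.3), below the arterial-like interval. Lfng, a glycosyltransferase that modifies Notch receptors, lay at 2.02 CPM (0.244 to 7.28) there and between 17.1 and 81.3 CPM in the other 11 sub-clusters. Nrarp, a feedback inhibitor of Notch, was at its highest there, 138 CPM (116 to 163).

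Venous-like cells were low in most members. They held Dll4 at 15.9 CPM (11.7 to 21.3), Notch4 at 17.7 CPM (13.2 to 23.2) and Hes1 at 51.3 CPM (43.4 to 60.3). Notch1 was an exception, since its venous-like level of 135 CPM lay within the interval of the larger tip-like sub-cluster, 136 CPM (124 to 148). Over the 12 sub-clusters, the mean log2 level of the venous markers correlated with Dll4 at r = -0.92 and with Notch4 at r = -0.88. Notch4 correlated most with the capillary markers (r = 0.81), then with the tip (r = 0.66) and arterial ones (r = 0.50). For Dll4 these values were 0.70 (capillary), 0.73 (tip) and 0.52 (arterial). These sub-clusters share libraries, differ in depth and include those led by mural or macrophage genes.

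An unnamed sub-cluster of 17 cells, 16 of them Tom positive, had the highest sum of venous markers, 3614 CPM against 2427 CPM in the venous-like cells, and like those it was low in Dll4 and Notch4. It differed from them in Dll1, Notch2 and Hes1. It had the highest Selp of the 12, the gene of P-selectin, which venous endothelium displays, at 2403 CPM. Dll1 there was 72.3 CPM (46.3 to 108), the highest of all sub-clusters, against 21.1 CPM (16.2 to 27.2) in the venous-like cells. Dll4 and Notch4 were each 6.02 CPM (0.729 to 21.8). Notch2, low in the endothelium as a whole, was 63.2 CPM (39.1 to 96.7) there, Hes1 was 193 CPM (148 to 246) and Lfng was 81.3 CPM. With 17 cells of nearly 1 library, these levels describe those cells alone.

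**Figure D2:**
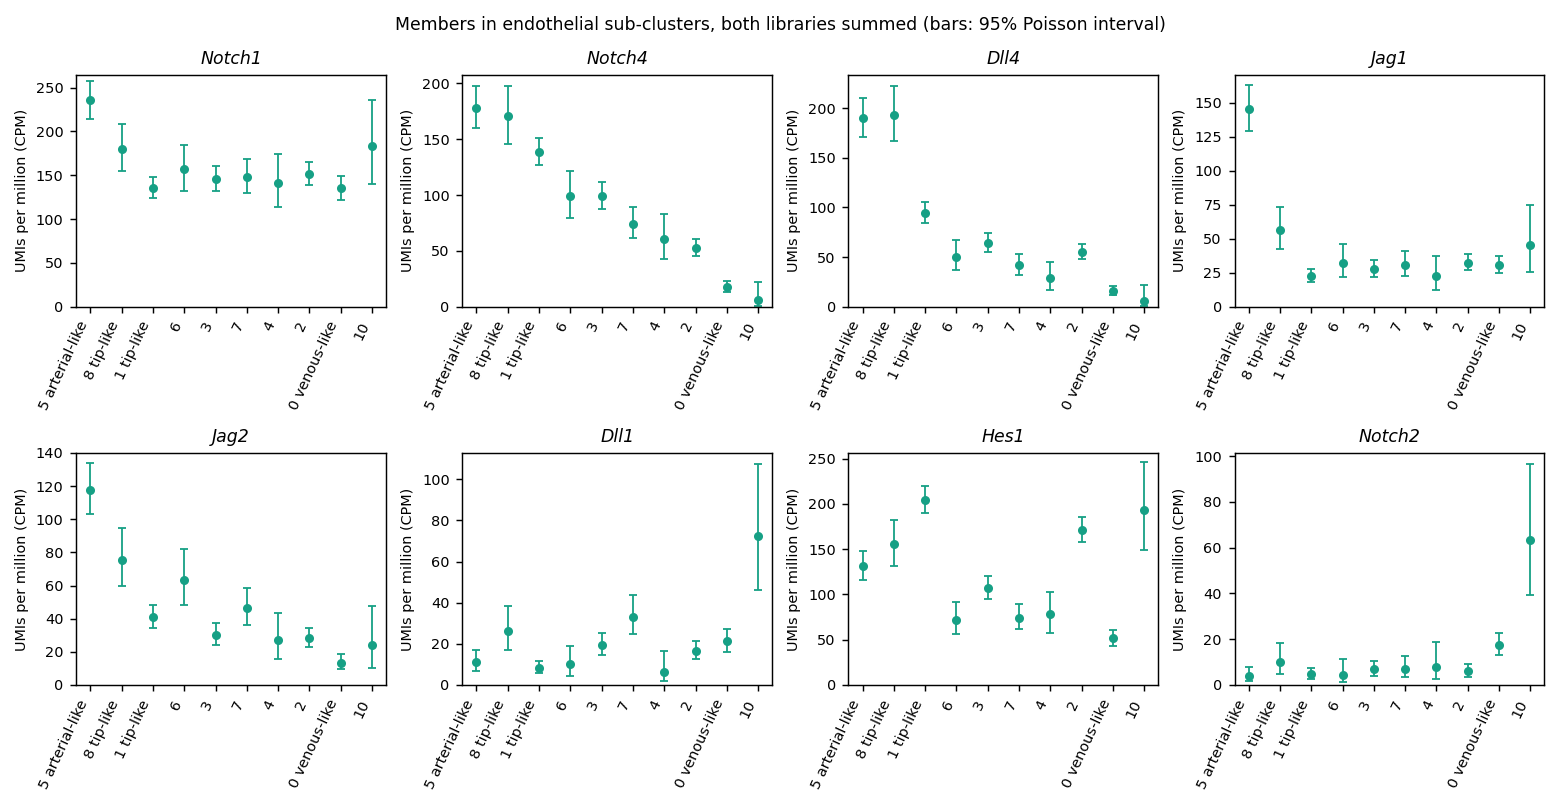
Level of 8 members (vertical axes, CPM, both libraries summed, 95% Poisson intervals) in 10 endothelial sub-clusters, numbered as found and named where markers allowed; the 2 sub-clusters led by mural or macrophage genes are left out. Notch4 and Dll4 fall from the arterial-like and tip-like cells to the venous-like ones, Notch1 lies between 135 and 235 CPM, and Dll1 and Notch2 peak in sub-cluster 10.

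Mural cells also varied. Clustered without the Notch genes, the 204 cells gave 7 sub-clusters. One of 26 cells, with the highest levels of the contractile genes Acta2 (7207 CPM) and Myh11 (826 CPM), held the highest Notch3, 1126 CPM (1035 to 1224), the highest Jag1, 244 CPM (203 to 292), and the highest Heyl, 121 CPM (92.4 to 156). Hey2, the promoter of which is printed above with its RBPJ core, lay at 44.4 CPM (27.8 to 67.2) there and at 7.68 CPM or less in the other 6. Hes1 did not follow: its highest level, 109 CPM (86.7 to 135), was in another sub-cluster. Notch3 was lowest, 343 CPM (306 to 383), in a sub-cluster led by Mmp10 and Cxcl9. A sub-cluster of 31 cells had myeloid genes such as Tyrobp among its leading genes. Without it, Notch3 in mural cells was 681 and 637 CPM.

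**Figure D3:**
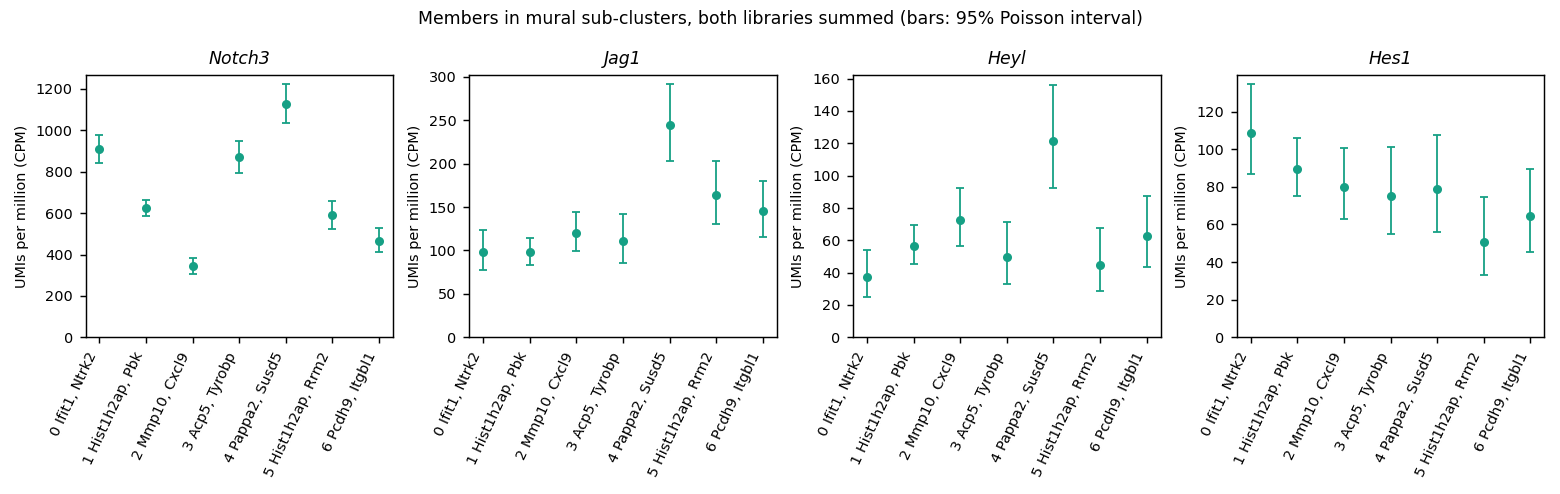
Level of Notch3, Jag1, Heyl and Hes1 (vertical axes, CPM, both libraries summed, 95% Poisson intervals) in 7 mural sub-clusters, labelled by number and 2 leading genes. Sub-cluster 4 has the highest Notch3, Jag1 and Heyl, and sub-cluster 0 the highest Hes1.

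Among fibroblasts, 1 of 6 clusters had the highest Notch1, Notch3 and Heyl. In this cluster (270 Tom positive and 633 Tom negative cells, led by Bmpr1b and Tnc) Notch1 was 30.1 and 30.2 CPM, Notch3 26.1 and 30.5 CPM and Heyl 27.0 and 36.6 CPM. In a cluster led by Clec3b and Tnxb, Notch1 was 1.04 and 1.81 CPM, Notch3 5.80 and 4.59 CPM and Heyl 0.297 and 0.706 CPM. The mural marker list summed to 2409 and 2778 CPM in the first cluster and to 55.0 and 88.4 CPM in the second, and its part in these levels was not tested. Notch2 did not follow that split, at 64.5 and 57.8 CPM in the first and 81.9 and 91.6 CPM in the second.

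Myeloid clusters differed in Jag1, Notch4 and Hes1. A cluster led by Chil3 and Ppbp had Jag1 at 107 and 77.3 CPM and Notch4 at 27.0 and 26.7 CPM, and one led by Mmp12 and Ccl4 had Jag1 at 75.0 and 80.0 CPM and Notch4 at 17.1 and 13.4 CPM. In the other 5 clusters Jag1 lay between 10.1 and 30.4 CPM and Notch4 at 5.69 CPM or less. The endothelial marker list summed to 161 and 117 CPM in the cluster led by Chil3 and Ppbp and to 102 and 92.2 CPM in that led by Mmp12 and Ccl4. Dll4, an endothelial gene, lay at 0.179 and 0.318 CPM in the former and at 0 and 0.244 CPM in the latter. Hes1 and Notch2 were highest elsewhere, in macrophage-like cells led by Retnla and Lyz1, at 52.5 and 21.6 CPM for Hes1 and 262 and 304 CPM for Notch2.

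**Figure D4:**
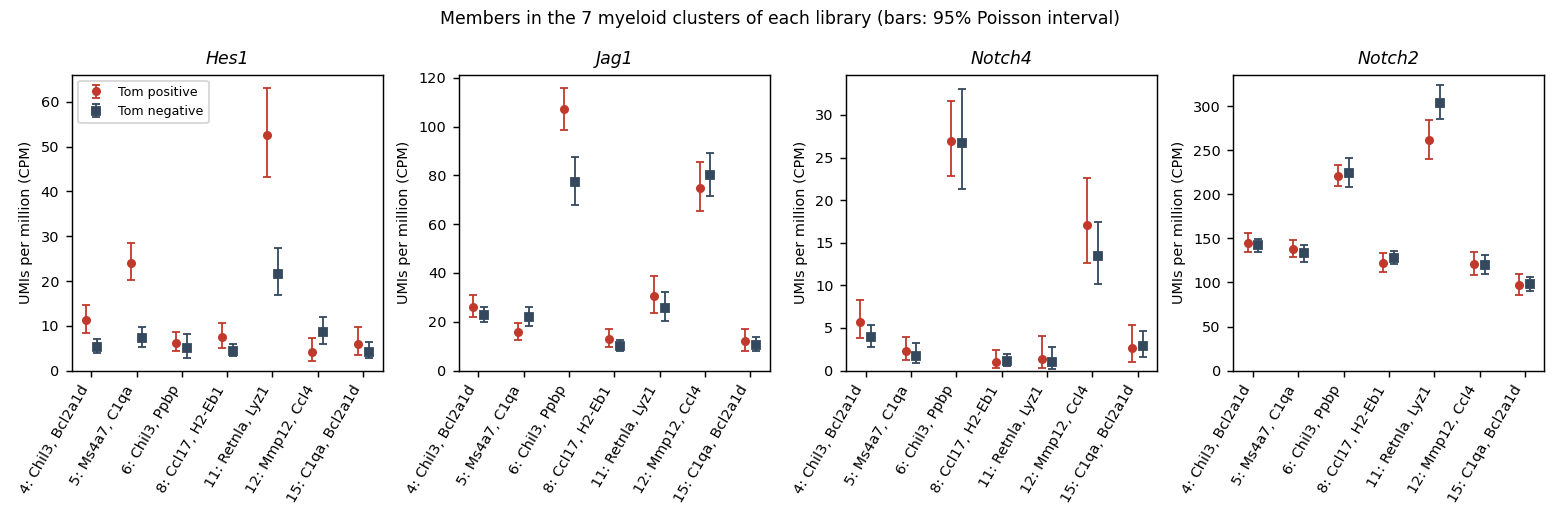
Level of Hes1, Jag1, Notch4 and Notch2 (vertical axes, CPM, 95% Poisson intervals) in 7 myeloid clusters of the Tom positive (circles) and Tom negative (squares) libraries, labelled by number and 2 leading genes. Hes1 is separated between the libraries in clusters 4, 5 and 11, while Jag1 and Notch4 stand out in clusters 6 and 12 of both.

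Between the sorted fractions, most members differed little. In endothelial cells 0 of the 9 members that reached 10 CPM were called, against 14.1% of all genes tested. The ratios of Tom positive over Tom negative ran from 0.679 (0.525 to 0.890) for Notch3 to 1.33 (1.18 to 1.51) for Hes1, with a median log2 difference of -0.14 over the members and -0.03 over all genes. Without the sub-clusters led by mural or macrophage genes, Notch3 lay below 10 CPM in both libraries (6.34 and 7.89 CPM), and its log2 difference was -0.28. Notch2 did too, at 8.85 and 7.10 CPM. Notch4 (ratio 0.794, 0.705 to 0.897) and Dll4 (0.830, 0.726 to 0.952) had intervals below 1. With the doubted shared barcodes kept, the Tom negative library held 237 endothelial cells in place of 119, and its levels were 110 CPM for Notch4, 86.7 CPM for Dll4 and 104 CPM for Hes1. With those barcodes left out, 4 of 31 other pathway genes were called, where 14.1% of all genes were. The targets Hey1 (22.1 and 38.3 CPM, ratio 0.578) and Nrarp (68.2 and 109 CPM, ratio 0.624) were lower in Tom positive cells. Lfng (28.8 and 19.0 CPM, ratio 1.52) and Maml2, a coactivator of the Notch complex (618 and 399 CPM, ratio 1.55), were higher. The venous-like sub-cluster held 96 Tom positive and 5 Tom negative cells, and the arterial-like one 45 and 10. Within the endothelial cluster led by Adgrl4 and Cyyr1 (268 and 87 cells), the differences in Notch4, Dll4 and Hey1 were smaller. Notch4 had a ratio of 1.01 (0.887 to 1.15) there and Dll4 one of 0.987 (0.859 to 1.14). Hey1, at 37.7 and 50.0 CPM, had a ratio of 0.754 (0.609 to 0.940) and was not called. Nrarp was still called lower, at 0.662 (0.574 to 0.764), where 14.7% of all genes were called, and Hes1 had a ratio of 1.45 (1.27 to 1.66). The other endothelial cluster held 32 Tom negative cells, too few for calls. The myeloid marker list, with 0 of 11 genes undetected, summed in endothelial cells to 133 CPM (Tom positive) and 490 CPM (Tom negative). The fibroblast list, with 0 of 9 genes undetected, summed to 1174 and 3084 CPM, 1.61% and 5.06% of its sum in fibroblasts. The part of these lists in the endothelial differences was not tested.

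In fibroblasts 0 of 6 members were called, against 2.28% of all genes, and 0 of 29 other pathway genes. Heyl came nearest, at 9.27 CPM (Tom positive) and 13.8 CPM (Tom negative), with a ratio of 0.674 (0.610 to 0.744), and Notch3 had a ratio of 0.717 (0.656 to 0.783). The cluster led by Bmpr1b and Tnc, which holds most Heyl, made up 6.64% of the Tom positive library and 11.8% of the other. Within it the Heyl ratio was 0.738 (0.651 to 0.835) and the Notch3 ratio 0.857 (0.753 to 0.974). The target Hey1 was called lower within that cluster, at 7.39 CPM (Tom positive) and 14.5 CPM (Tom negative). Its ratio was 0.511 (0.403 to 0.641), where 2.35% of all genes were called. In the other fibroblast clusters Hey1 lay below 10 CPM in both libraries. Heyl did not go the same way in every cluster. Its ratio was 0.610 (0.439 to 0.834) in the cluster led by Serpinb2, but 2.65 (1.72 to 4.17) on 75 and 31 UMIs in that led by Thbs4 and Kcnma1 and 1.53 (1.03 to 2.32) in that led by Csmd1 and Sfrp4, both below 10 CPM. Hes1 had a ratio of 1.18 (1.13 to 1.24) over all fibroblasts.

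In myeloid cells 1 of 4 members, Hes1, was called higher in the Tom positive library, where 2.06% of all genes were called and 1.08% were called higher. Its level was 14.2 CPM, from 399 UMIs, against 6.79 CPM, from 276 UMIs, in Tom negative cells. The ratio was 2.10 (1.79 to 2.45). With the doubted shared barcodes kept, the levels were 14.4 and 6.93 CPM. The ratio was above 1 in 6 of 7 clusters, with 3.33 (2.34 to 4.85) in macrophage-like cells led by Ms4a7 and C1qa, where 4.17% of all genes were called. It was 2.43 (1.78 to 3.33) in those led by Retnla and Lyz1, where 14.1% were. Hes1 was also called higher in the cluster led by Chil3 and Bcl2a1d, at 11.2 and 5.28 CPM with a ratio of 2.12 (1.42 to 3.16), where 2.83% of all genes were called. In the other clusters with a ratio above 1, Hes1 lay below 10 CPM in both libraries. There the ratio was 1.23 (0.662 to 2.38) with Chil3 and Ppbp leading and 1.41 (0.700 to 2.77) with C1qa and Bcl2a1d leading. With Ccl17 and H2-Eb1 leading it was 1.69 (1.02 to 2.76). The ratio was 0.490 (0.232 to 0.967) in the cluster led by Mmp12 and Ccl4, on 12 and 35 UMIs. The endothelial marker list, all 10 of which were detected, summed in myeloid cells to 105 CPM (Tom positive) and 64.0 CPM (Tom negative), 1.37% and 0.945% of the endothelial sum, and its part in the Hes1 difference was not tested. Pecam1, which myeloid cells also carry, made up 74.1 and 48.5 CPM of those sums, and Cdh5 stood at 6.46 and 2.85 CPM. The same list summed to 88.1 and 65.9 CPM in the cluster led by Ms4a7 and C1qa, to 41.4 and 20.0 CPM in that led by Retnla and Lyz1, and to 115 and 67.2 CPM in that led by Chil3 and Bcl2a1d. The macrophage list also moved in the cluster led by Retnla and Lyz1, at 11044 and 7357 CPM, and the part of these sums in the cluster ratios was not tested.

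Jag1 in myeloid cells came close to the limit without passing it, at 42.2 and 28.4 CPM, a ratio of 1.49 (1.37 to 1.62). The Jag1-rich cluster led by Chil3 and Ppbp made up 9.88% of the Tom positive library and 4.00% of the other. With clusters weighted equally the log2 difference of Jag1 was 0.16 in place of 0.56. Within that cluster the ratio was 1.38 (1.19 to 1.61), and in cells led by Ms4a7 and C1qa it was 0.716 (0.539 to 0.947). Of the other pathway genes 0 of 28 were called in myeloid cells; Rbpj itself lay at 491 and 454 CPM there, above its level in endothelium, mural cells and fibroblasts.

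In neutrophils 1 of 4 members, Notch1, was called higher in the Tom positive library, where 42.9% of all genes were called and 36.7% were called higher. Its levels rested on few UMIs: 42 in Tom positive cells (41.3 CPM) and 24 in Tom negative cells (15.3 CPM), a ratio of 2.69 (1.59 to 4.65). With the doubted barcodes kept they were 40.6 and 15.3 CPM. Neutrophils were shallow, with medians of 3562 and 2746 UMIs, and the median log2 difference over all genes was 0.36. Of the other pathway genes 7 of 25 were called higher, a share below the background. The libraries differed in their neutrophil clusters, with 156 Tom positive and 440 Tom negative cells in one that has Ccl3 and Hcar2 among its leading genes, and 129 and 100 in one that has Hdc and Csf3r. Notch1 had a ratio of 1.32 (0.569 to 2.93), not called, in the former. In the latter it was 3.87 (1.49 to 12.8) on 31 and 5 UMIs, where 52.8% of all genes were called. Notch2 had a ratio of 0.757 (0.639 to 0.895) over all neutrophils, but its direction differed between these clusters, with 0.595 (0.471 to 0.745) in the former and 1.31 (0.937 to 1.84) in the latter.

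**Figure D5:**
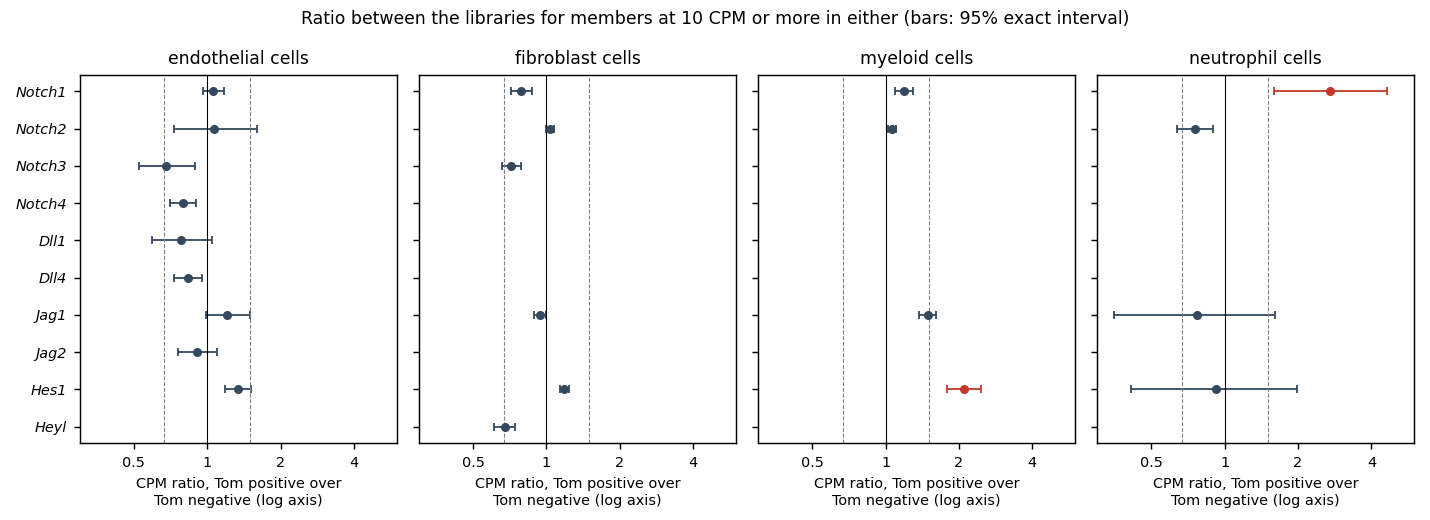
Ratio of CPM in the Tom positive over the Tom negative library (horizontal axes, log scale, 95% exact intervals) for members at 10 CPM or more in endothelial, fibroblast, myeloid and neutrophil cells. Dashed lines stand at 1.5-fold in either direction; of the members only Hes1 in myeloid cells (2.10) and Notch1 in neutrophils (2.69) lie past them.

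Within the Tom positive library, cells with at least 500 CPM of tdTomato were set beside the rest. In myeloid cells (1045 and 363 cells) Hes1 lay at 14.4 and 13.7 CPM, a ratio of 1.05 (0.836 to 1.33). Notch4 was called higher, at 10.1 and 6.17 CPM (1.64, 1.19 to 2.32), in a comparison that called 1.61% of all genes. Among Tom positive myeloid cells, Notch4 was highest in the clusters led by Chil3 and Ppbp (27.0 CPM) and by Mmp12 and Ccl4 (17.1 CPM). The part of cluster make-up in this call was not tested. In fibroblasts (284 and 1266 cells) Notch1 was called higher, on 169 and 457 UMIs (1.67, 1.39 to 1.99), where 6.33% of genes were called. The tdTomato level was 823 CPM in the Notch1-rich fibroblast cluster led by Bmpr1b and Tnc and 407 CPM over all Tom positive fibroblasts. Cells of 1 library share their source, so these are descriptions of that library.

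The genes most like each member in pattern were found over 11 sums of a class in a library, by Pearson correlation of log2 CPM; the sums share the 2 libraries. Dll4 ran closest to Ptprb (r = 0.99), Pcdh17 and Spns2, and Jag2 ran close to Gsg1 (r = 0.97) and Pdgfb. Ptprb is itself on the marker list by which the endothelial class was named. Notch1 ran closest to Fry (r = 0.98), Notch2 to Asph (r = 0.92) and Notch4 to Cd247 (r = 0.97). For Dll1 the closest gene was Bend7 (r = 0.97) and for Hes1 it was Ltbp4 (r = 0.98). Heyl ran closest to Ndufa4l2 and Actg2 (both r = 0.98), Notch3 to Rnd2 (r = 0.97) and Jag1 to Pdgfa (r = 0.96). Among the members, Dll4 correlated with Dll1 (r = 0.89), Jag2 (r = 0.89) and Notch1 (r = 0.88), and Notch2 ran against Notch4 (r = -0.86).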

How the data were processed

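Both libraries were made with the 10x Genomics 3-prime kit, per the labels' protocols. The deposited matrices hold whole-number UMI counts per gene and cell; the submitters' processing notes say that the authors used Cell Ranger 7.0.1 and mm10. The calling of barcodes and the treatment of intronic reads are not given in the sources used here.

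Cells with at least 500 genes, 1000 UMIs and at most 10% mitochondrial UMIs were kept, Scrublet doublets (63 and 97) removed, and a shared barcode was left out where the other library held over 5 times its UMIs or both held under 5000. Cells were clustered with scanpy 1.11.5 and leidenalg 0.10.2 (2000 variable genes, 30 components, 15 neighbours, resolution 1.0, Notch genes left out). Clusters were named from marker lists; limits for naming were set after the data were seen. The CPM was computed from summed counts, intervals with scipy 1.17.1, and TMM factors with edgeR 4.0.16. Ratio code was tested on simulated data.

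Named genes are all 10 members, those of 44 listed pathway genes past 1.5-fold (at most 6 a class) or used as levels, and for likeness the genes with the highest correlation of log2(CPM + 1). The members and lists were chosen with earlier results of these data known. Columns of other series numbered 0.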

Additional observations from a re-analysis of the deposited data

Results flagged for a closer look

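For 3 members the intervals of the ratio of Tom positive over Tom negative lay on opposite sides of 1 in a pair of cell classes. Notch1 had a ratio of 2.69 in neutrophils and 0.789 in fibroblasts. Notch2 had a ratio of 1.06 in myeloid cells and 0.757 in neutrophils. Within the pair of neutrophil clusters the Notch2 ratio was 0.595 and 1.31. Jag1 had a ratio of 1.49 in myeloid cells and 0.941 in fibroblasts. None of these differences between classes was tested, since each class has 1 library per group.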

How the results depend on the processing

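No paired analysis was possible because each group has 1 library and no result comes from a test. Over the alternatives run, 50 counts of called members stayed within 1.5 times the reported count and 16 did not. With no level filter 1 endothelial, 2 fibroblast, 4 myeloid and 6 neutrophil members were past 1.5-fold. With the mean over cells of CPM per cell, 1 endothelial (Notch4) and 2 myeloid members (Jag1, Hes1) were. With cells thinned to 2000 UMIs, 4 endothelial (Dll1 and Hes1 higher, Notch4 and Jag2 lower) and 2 fibroblast members (Hes1 higher, Heyl lower) were. The thinned Dll1 difference rested on few cells. Only 1 of 115 Tom negative endothelial cells kept a Dll1 UMI, against 16 of 483 Tom positive ones. Unthinned, the endothelial Dll1 ratio went the other way, at 0.779 (0.592 to 1.04), an interval that holds 1. With the Tom positive library limited to cells with a tdTomato level of at least 500 CPM, 3 endothelial, 3 myeloid and 2 neutrophil members were past 1.5-fold. That endothelial count rests on 31 Tom positive cells, fewer than the 50 required elsewhere. With clusters weighted equally 1 endothelial member (Dll1) was, with TMM factors 3 neutrophil members, at a mitochondrial limit of 5% 3 myeloid members, at 20% 1 endothelial member (Notch3), and at Leiden resolution 2 1 fibroblast member (Heyl). The share of all genes past 1.5-fold was not computed under these alternatives, and the cause of these changes was not tested. Hes1 in myeloid cells (log2 difference 0.64 to 1.29) and Notch1 in neutrophils (log2 difference at least 1.03) were past 1.5-fold under every alternative run for them. Of the log2 differences 508 moved by no more than the distance from the middle of their log2 counting interval to its end, and 72 by more. Differences without a finite interval, from members with few or no UMIs, were counted among the 508. With cells unthinned or thinned to 1000 UMIs, 139 shares of cells moved beyond their binomial interval and 81 did not. Of 180 comparisons of the leading class with the next, 0 gave another order. These were made only under settings that change the cells or clusters, not with thinned cells, means over cells or TMM factors. The other Leiden resolutions and the allowing of Notch genes left the numbers of endothelial, lymphatic and mural cells unchanged, so they could hardly reorder those classes. Leaving out the endothelial sub-clusters led by mural or macrophage genes, and keeping the mixed dendritic and lymphocyte cluster as myeloid, were chosen after seeing the data and left the counts as reported. Neutrophil and lymphatic levels are limited by depth and cell number.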

Other observations

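Cells outside the 6 classes also carried members. In 31 Tom positive mast-like cells Hes1 was 338 CPM (265 to 425), against 272 CPM in Tom positive lymphatic endothelial cells. In carcinoma-like cells Notch2 was 218 CPM (Tom positive) and 178 CPM (Tom negative), and Jag1 was 96.8 and 138 CPM. Dll1 was 8.52 and 17.9 CPM there, on 14 and 19 UMIs, and Jag2 was 10.3 and 13.2 CPM, on 17 and 14 UMIs. These cells were few (32 and 79 carcinoma-like cells), and no comparison between libraries was made for them. The median depths of the carcinoma-like cells were 48045.5 UMIs (Tom positive) and 1252 UMIs (Tom negative). Of the Tom negative ones, 56 were in a cluster where the fibroblast marker list summed to 36730 CPM. The other 23 were in a cluster where it summed to 1239 CPM. The part of depth and of this list in the carcinoma-like levels was not tested.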
